A study of Drosophila melanogaster with 2 samples.

Results

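The X chromosome of the fly carried 1648 of the 8483 binding sites listed for the GFP-tagged protein CG15710 in whole pupae. These sites are all peaks on X in the list left by the authors' filter on reproducibility between replicates (irreproducible discovery rate, IDR), and they were set against the 1527 peaks on 2L, the 1899 on 3L and the 1918 on 3R. The material was chromatin from whole Drosophila melanogaster pupae at 24 hours, with both sexes pooled, from flies transgenic for CG15710 with eGFP at its C-terminus. Sonicated chromatin was precipitated with an antibody to GFP and sequenced (ChIP-seq). The animals formed 1 group, with 2 biological replicates that the labels number 1 and 3 and no other genotype, age or treatment, so all comparisons here are between chromosome arms within the same animals. A control library was not analysed here. CG15710 is a gene known by its annotation number, and whole animals mix all tissues, so binding in a single cell type cannot be read from these lists.

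Fly males have a single X and females a pair. In males the MSL complex, which holds the histone acetyltransferase MOF and the noncoding RNAs roX1 and roX2, coats the X and raises its transcription to the female level. The fly X is also known to hold more CA and GA repeats than the autosomes. In animals of pooled sexes the mean copy number of X is below that of the autosomes. Copy number and arm cannot be told apart in these samples, and the part of copy number in any value below was not tested.

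The sequences under the X peaks of highest signal show what the sites look like. The signal of a peak is the authors' own value for it, without a stated scale, and is compared here only within a list. The windows below reach at most 50 bases to each side of a summit (the position of highest signal in a peak) and are shown on the + strand of build dm6 from the RefSeq copy of the assembly. Runs of at least 6 A or T are in capitals. The first set lay within 500 bp of a transcription start site (TSS) of a protein-coding gene. The Ugalt window is chrX:2703853-2703940 and is trimmed at its TSS, the ph-p window is chrX:2137280-2137380, and the Gapdh2 window is chrX:15867928-15868028. The second set lay more than 500 bp from any TSS: the exon of lncRNA:Vinr at chrX:12751279-12751379, the intron of CG32772 at chrX:4910349-4910449, and the exon of lncRNA:CR44619 at chrX:12752318-12752418.
Ugalt promoter: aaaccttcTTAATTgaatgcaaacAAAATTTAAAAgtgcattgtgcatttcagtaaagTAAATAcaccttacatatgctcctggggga
ph-p promoter: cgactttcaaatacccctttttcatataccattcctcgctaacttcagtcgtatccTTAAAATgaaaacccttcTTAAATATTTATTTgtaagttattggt
Gapdh2 promoter: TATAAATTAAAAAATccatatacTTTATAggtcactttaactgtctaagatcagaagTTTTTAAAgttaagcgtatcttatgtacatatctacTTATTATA
lncRNA:Vinr exon: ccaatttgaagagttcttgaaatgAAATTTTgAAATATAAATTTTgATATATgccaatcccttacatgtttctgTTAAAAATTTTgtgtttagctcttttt
CG32772 intron: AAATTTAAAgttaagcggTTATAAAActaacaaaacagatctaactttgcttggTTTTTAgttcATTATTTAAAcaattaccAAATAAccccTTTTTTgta
lncRNA:CR44619 exon: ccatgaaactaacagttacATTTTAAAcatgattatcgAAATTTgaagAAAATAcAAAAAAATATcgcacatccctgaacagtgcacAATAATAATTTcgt
All 6 windows were rich in A and T, with 22.8% G and C at Gapdh2 and 24.8% at both the lncRNA:Vinr and the CG32772 site. The highest of the 6 was 33.0% at Ugalt. The longest unbroken run of A and T was 15 bases at Gapdh2, 14 at ph-p and 10 at CG32772.

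The site of highest signal on X was the promoter of Ugalt, whose product carries UDP-galactose into the Golgi. Its summit lay upstream of the TSS, at -38 bp. It had a signal of 6904.8 in the IDR list (rank 5 of 8483), 4302.6 in replicate 1 (rank 5) and 2636.1 in replicate 3 (rank 6). This was the highest signal on X in each of these lists. The promoter of ph-p, which encodes a subunit of the Polycomb complex PRC1, held a pair of summits in 1 region of 1519 bp (2136834 to 2138352). The stronger lay upstream of an internal TSS, at -475 bp, and 1041 bp downstream of the first TSS, with signal 5190.4 in the IDR list, 3180.6 in replicate 1 and 2070.9 in replicate 3, at rank 18 in both replicates. The weaker lay 424 bp downstream of the first TSS, at ranks 49 in replicate 1 and 72 in replicate 3. The gene ph-d is a tandem copy of ph-p, so reads from shared sequence may be placed in either. Gapdh2, a gene of the glycolytic enzyme GAPDH, had its summit upstream of the TSS, at -167 bp. Its signal was 4217.8 in the IDR list, 3002.2 in replicate 1 (rank 23) and 1241.3 in replicate 3 (rank 87), so the replicates ranked it less alike than Ugalt or ph-p.

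A pair of strong sites near 12.75 Mb flanked the start of a noncoding gene. Their summits lay 1039 bp apart, at -538 bp and 501 bp from the TSS of lncRNA:CR44619 (12751867 to 12754571, plus strand). The upstream summit was inside an exon of the overlapping gene lncRNA:Vinr (12749894 to 12752350). It had signal 6258.2, at rank 8 in replicate 1 and rank 14 in replicate 3. The downstream summit had signal 4905.0, at ranks 22 and 25. Both lay just outside the 500 bp that count as promoter here. The nearest protein-coding TSS, of CG4004, was 5012 bp from the first and 6051 bp from the second.

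Introns held 6 of the 15 X peaks of highest signal. The strongest lay in CG32772, 1297 bp downstream of its TSS, with signals of 5923.2 in the IDR list, 3839.4 in replicate 1 and 2095.8 in replicate 3. The promoter of the same gene held a further peak of the 15, with signal 3173.3 and ranks of 47 in replicate 1 and 234 in replicate 3, the widest gap in rank among the 15. Next was an intron of Raf, the MAP kinase kinase kinase downstream of Ras, with signal 3792.1 at 5230 bp from the TSS. An intron of CG3726 followed with signal 3582.5. An intron of lncRNA:CR45668, at -4699 bp from the TSS of the cytoplasmic actin gene Act5C, had signal 3406.2. The last 2 lay in CHES-1-like, a forkhead transcription factor gene (signal 3250.1), and in LPCAT, for a lysophospholipid acyltransferase (signal 3181.4). The remaining promoters of the 15 were those of pdgy, an acyl-CoA synthetase gene (signal 3115.0, at -246 bp), and of bbx, an HMG-box gene (signal 2957.0, at -210 bp). In each replicate all 15 overlapped a peak of rank 234 or better, with summits within 50 bp.

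**Figure D1:**
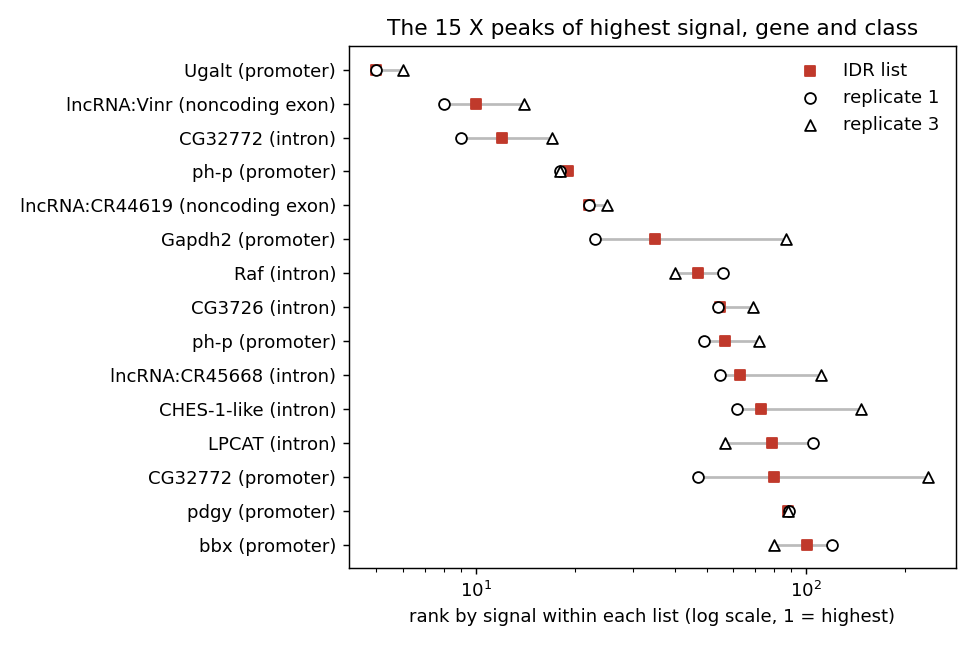
Rank by signal (log scale, 1 is the highest) of the 15 X peaks of highest signal in the IDR list (squares), replicate 1 (circles) and replicate 3 (triangles), labelled by gene and annotation class. Ugalt stood at ranks 5, 5 and 6, and the CG32772 promoter spread from 47 to 234.

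Over whole arms, peaks were somewhat denser on X than on the other 3. X held 70.2 peaks per Mb, against 64.9 on 2L, 67.8 on 3L and 59.8 on 3R. With the centromere ends left out, 3L was denser than X, as given below. Of the 6992 peaks on these 4 arms, 23.6% (95% exact Clopper-Pearson interval 22.6 to 24.6) were on X, which has 21.9% of their bases. The ratio of X to the other 3 together was 1.10 (exact binomial test, two-sided, p = 0.001035). Peaks are not independent replicates, so this and every p here describe the lists and not the spread between animals. In the 8483 strongest peaks of each replicate, X held 69.9 per Mb in replicate 1 and 69.1 in replicate 3, with ratios of 1.09 and 1.07. The difference did not pass against 3L alone (ratio 1.03, exact p = 0.3119) or in the 4241 IDR peaks of highest signal (ratio 1.04, exact p = 0.3265).

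The share on X was larger when weaker peaks of the IDR and pooled lists were counted. Of the 100 strongest IDR peaks, 81 lay on the 4 arms and 14 of these on X (17.3%, 9.78 to 27.3). Of the 500 strongest, 80 of 424 were on X (18.9%, 15.2 to 22.9), and of the 1000 strongest 175 of 838 (20.9%, 18.2 to 23.8). In the whole pooled list of 30000 peaks, X held 6173 of 24520 (25.2%). The rise was not even: in 10 groups of the IDR list by signal, X held 21.0% of the strongest group, 21.1% of group 6 and 25.9% of group 8. The replicates differed at the weak end. Over their full lists of 30000 peaks, X held 6084 peaks in replicate 1 (24.9% of those on the 4 arms) and 5668 in replicate 3 (23.0%). In their 8483 strongest peaks the X shares were 23.5% and 23.1%. From there to the full list the share thus rose in replicate 1 and did not rise in replicate 3. The trend over groups was not tested.

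**Figure D2:**
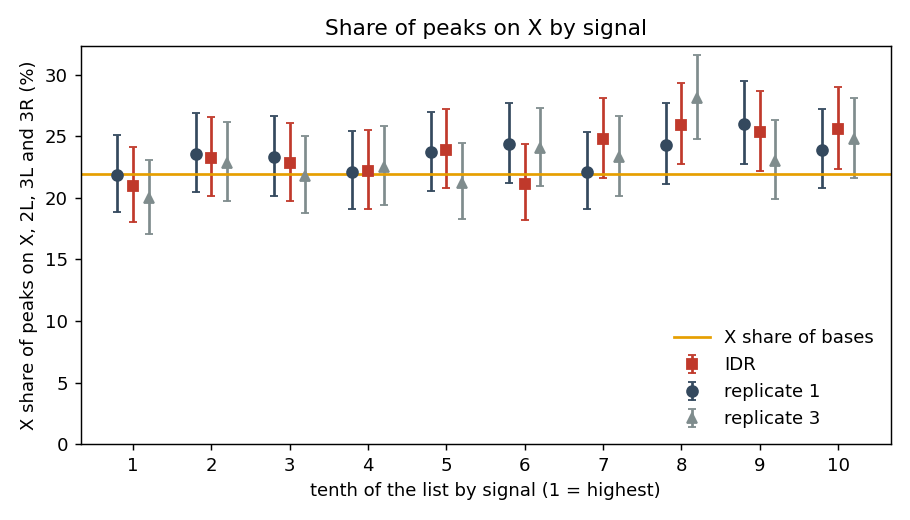
Share of the peaks on X, 2L, 3L and 3R that lay on X (%), in 10 groups by signal from highest (1) to lowest (10), for the IDR list and the 8483 strongest peaks of each replicate. Bars are 95% exact intervals and the line is the X share of bases, 21.9%. The strongest group lay near the line in each list, from 19.97% to 21.9%.

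The signal of X peaks was close to that of the other arms. The median signal was 315.9 on X (interquartile range 212.3 to 594.8), 335.2 on 2L, 345.9 on 3L and 321.6 on 3R. On X, 790 of 1648 peaks (47.9%, 45.5 to 50.4) lay above the median of the IDR list, 329.4, against 50.6% of peaks on the other 3 arms. The difference of -2.64 percentage points had an interval of -5.40 to 0.118 (Fisher's exact test, two-sided, p = 0.06293). It passed in the peaks of replicate 3 alone, at -4.17 points (Fisher's exact p = 0.003535), and not in those of replicate 1, at -1.68 points (Fisher's exact p = 0.2361). It also passed against 3L alone, at -4.14 points (Fisher's exact p = 0.01402), and with 1 summit per region of overlapping peaks, at -3.11 points (Fisher's exact p = 0.03082).

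Where on X a peak lay, by annotation, was the clearest difference from the other arms. Each summit was put in 1 of 7 classes: promoter if within 500 bp of any TSS, and otherwise exon (5′ UTR, coding, 3′ UTR or noncoding), intron or intergenic. Introns held 852 of the 1648 X summits (51.7%, 49.2 to 54.1), against 38.8% on 2L, 37.0% on 3L and 43.0% on 3R. The share on X was above that of each other arm. The difference from the 3 together was 12.0 percentage points (9.28 to 14.8, Fisher's exact p adjusted over the 7 classes by Benjamini-Hochberg = 2.9e-17). Among the peaks of replicate 1 the X intron share was 51.2% and among those of replicate 3 it was 53.0%.

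Intergenic sequence held fewer X peaks. It had 173 of the X summits (10.5%, 9.06 to 12.1), against 21.0% on 2L, 27.2% on 3L and 17.4% on 3R. The X share was below that of each other arm, by 11.4 points for the 3 together (difference -11.38, -13.2 to -9.46, Fisher's exact adjusted p = 3.1e-26). The replicates gave 9.80% in replicate 1 and 10.97% in replicate 3. The bases of the arms differ in class too: 22.3% of X bases lay in the intergenic class, against 28.6% on 2L, 32.0% on 3L and 23.9% on 3R, and 43.5% of X bases lay in the intron class, against 36.5% on 2L, 37.1% on 3L and 43.1% on 3R. By bases, X was thus close to 3R in both classes. Counted per Mb of each class, both differences kept their direction and passed. Such ratios also hold the higher density of X peaks over all classes (1.10). Introns held 83.4 peaks per Mb on X against 64.6 on the other arms (ratio 1.29, exact binomial adjusted p = 4.1e-09), and intergenic sequence 33.0 against 50.1 (ratio 0.658, exact binomial adjusted p = 2.7e-07). Divided by the class's share of bases, the intron share of summits was 1.19 on X and 1.01 on the other 3 arms together. For intergenic summits these values were 0.470 and 0.784, and they were not tested. X genes were also longer, with a median span of 2521 bp against 2080 bp on the other 3 arms together.

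3′ UTRs held few peaks on any arm but more on X. X had 26 (1.58%, 1.03 to 2.30) and the other 3 arms together 22 (0.412%), an odds ratio of 3.88 (Fisher's exact adjusted p = 1.6e-05). The class took 5.93% of X bases and 4.12% of the others. Per Mb of 3′ UTR the ratio was 2.92 (exact binomial adjusted p = 7.3e-04). Some genes, such as Lsd-2, Inx2 and stas, held more than 1 of the X summits. The counts on X were 26 in replicate 1 and 20 in replicate 3. The strongest was in Lsd-2, the gene of a lipid droplet perilipin (signal 1820.9), followed by CG7872 (signal 1237.5) and the anaphase-promoting complex gene APC7 (signal 851.1); these 3 were named after their values were seen. Among the 4241 strongest IDR peaks the 3′ UTR call ended (Fisher's exact adjusted p = 0.1239). The other classes did not pass. Promoters held 561 X summits (34.0%, 31.7 to 36.4) against 36.2% on the other arms (difference -2.13 points, -4.73 to 0.521, Fisher's exact adjusted p = 0.2083), and there were 21 in noncoding exons, 11 in 5′ UTRs and 4 in coding exons. With promoters counted to 250 bp only, the promoter difference was -4.71 points and passed (Fisher's exact adjusted p = 2.5e-04).

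**Figure D3:**
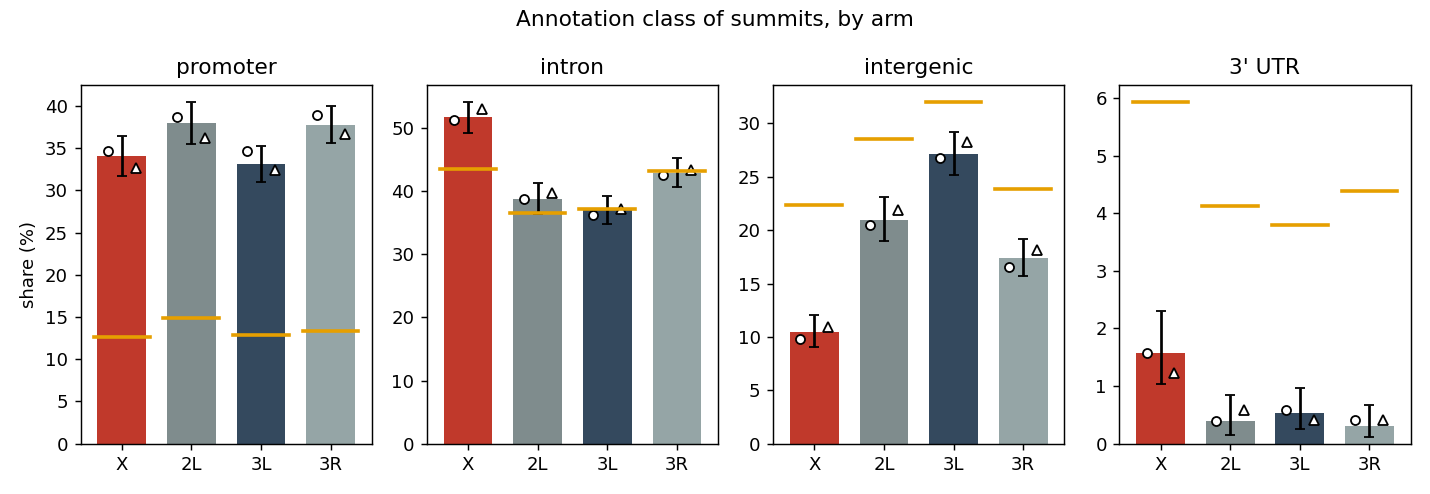
Share of IDR summits (%) in the promoter, intron, intergenic and 3′ UTR classes on X, 2L, 3L and 3R. Bars show the IDR list with 95% exact intervals, circles replicate 1, triangles replicate 3 and lines the share of the arm's bases in the class. Introns held 51.7% on X against 37.0% to 43.0% elsewhere, and intergenic sequence 10.5% against 17.4% to 27.2%.

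Along X, peaks were densest between 25% and 35% of its length and thin near the centromere. By steps of 1 Mb from the telomere, the most peaks lay between 6 and 7 Mb (114) and between 7 and 8 Mb (111), with 108 between 3 and 4 Mb. The strongest of the first step was upstream of ND-ASHI, a gene of mitochondrial complex I, inside the fumarase gene Fum1 (signal 2030.5). The strongest of the 7 to 8 Mb step was the CHES-1-like intron peak. The fewest lay in the last steps, with 9 between 22 and 23 Mb and 3 beyond 23 Mb. The strongest there were inside CG42346 and the overlapping fog (signal 761.9) and at -254 bp from a TSS of CG17167 (signal 212.2). Peak and protein-coding gene numbers moved together only loosely over the 23 whole steps, with a Spearman correlation of 0.34, given as a description because neighbouring steps share sequence features. Between 3 and 4 Mb there were 108 peaks for 55 genes, and between 20 and 21 Mb 27 peaks for 81 genes.

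The thinning toward the centromere was also present on the other arms, to different degrees. In the last 5 Mb X held 184 peaks, or 37.3 per Mb, against 79.0 in the rest of the arm. The same end held 48.0 per Mb on 2L, 0.818 on 3L and 9.04 on 3R. Without these ends 3L had the highest density, with 82.0 peaks per Mb against 79.0 on X, 69.5 on 2L and 69.2 on 3R. The ratio of X to the other arms together was then 1.07 (exact binomial p = 0.0182).

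**Figure D4:**
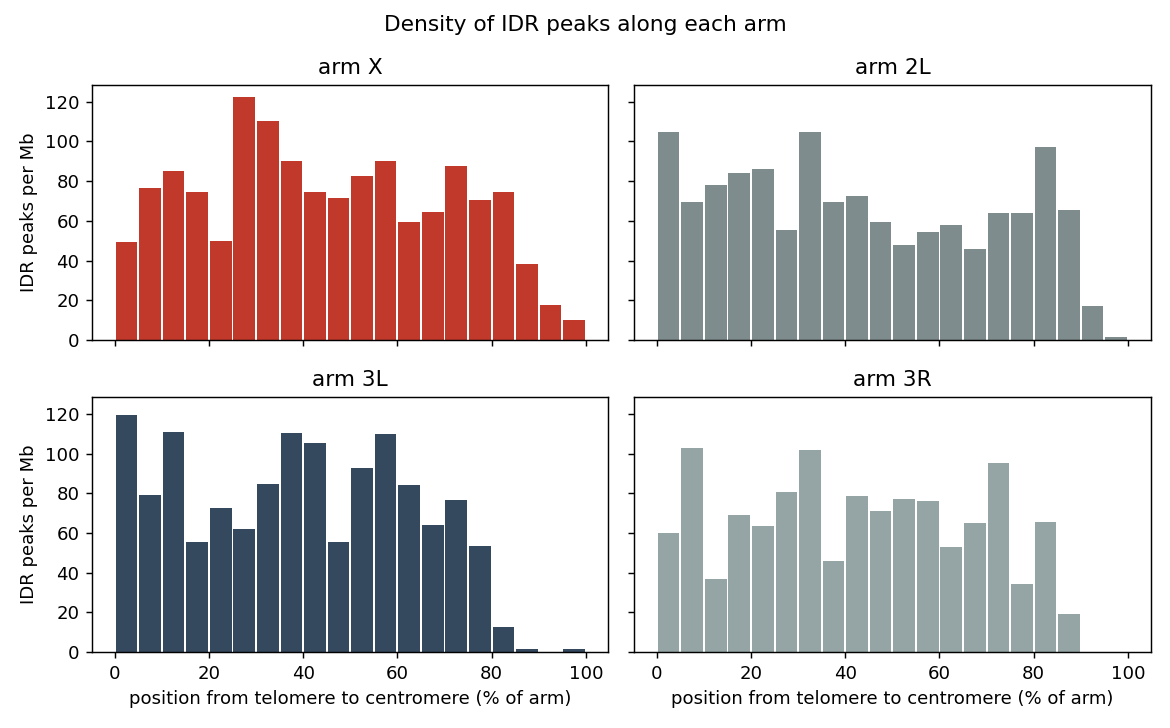
IDR peaks per Mb in steps of 5% of arm length, from telomere to centromere, on X, 2L, 3L and 3R. X reached 122.3 per Mb between 25% and 30% of its length and had 10.2 in its last 5%.

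Some long genes held many peaks. Of the 2196 protein-coding genes on X, 1729 had no summit inside their span, 258 had 1, 143 had 2 to 4, and 66 had 5 or more. The gene kirre, for an immunoglobulin cell adhesion protein of myoblast fusion, had the most, with 36 summits over 394149 bp, 33 of them in introns. Its strongest had signal 2093.6 and its weakest 173.9. The genes CG1677 and CG43658 had 23 each, and Tlk, for the Tousled-like kinase, had 19. Mnt, whose protein pairs with Max and opposes Myc, had 16 in a span of only 29872 bp, or 53.6 per 100 kb, against 9.13 for kirre. Spans of different genes overlap in places, so a summit can count for more than 1 gene.

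Genes of X were bound at their start about as often as other genes. Bound genes are those with at least 1 IDR summit no more than 500 bp from a TSS of theirs. On X, 541 of 2196 protein-coding genes were bound (24.6%, 22.8 to 26.5), beside a background of 25.0% over the 4 arms. The share was 24.1% on 2L, 25.7% on 3L and 25.3% on 3R. The difference between X and the other 3 was -0.418 points, with an interval of -2.40 to 1.63 (Fisher's exact test, two-sided, p = 0.6998). With a window of 250 bp it was -2.25 points (17.9% against 20.1%, Fisher's exact p = 0.01784), and with 1000 bp it was 0.962 points (Fisher's exact p = 0.372).

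At promoters, X summits lay mostly upstream of the TSS. Of the 527 X summits within 500 bp of the nearest protein-coding TSS, 390 were upstream (74.0%, 70.0 to 77.7), with a median of -131 bp. The shares upstream were 78.3% on 2L, 79.8% on 3L and 80.3% on 3R, with medians of -118, -114 and -117 bp. Away from promoters, X summits had the lowest median distances of the 4 arms. The median distance to a protein-coding TSS was 3700.5 bp for X intron summits, against 4858 bp on 2L, 4042 bp on 3L and 4685.5 bp on 3R. For intergenic summits it was 3229 bp on X, against 6430 bp, 6623.5 bp and 5166 bp on the same arms. These distances were not tested.

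Of 9 X-linked genes for dosage compensation and sex determination, 1 was bound (11.1%, 0.281 to 48.2). This was Sxl, the switch gene of female development, with signal 748.9 at rank 1576 in replicate 1 and 1639 in replicate 3. The interval includes the 24.6% of all X protein-coding genes, though the list also holds the noncoding roX1 and roX2. The gene roX1 (3857230 to 3862697) had no IDR peak over it, and the nearest lay 4581 bp away. Weaker peaks did overlap roX1, 3 in the pooled list, 3 in replicate 1 and 2 in replicate 3, the strongest at ranks 13025, 12578 and 13657. The pooled one (3862411 to 3862810) covered the roX1 TSS. At roX2 (11579065 to 11580432), 1 IDR peak of signal 176.2 touched the 3′ end. Its summit lay 81 bp past the gene and at -259 bp from the TSS of nod, a kinesin gene, so it was counted as bound for nod. The replicates differed here: the summit lay 82 bp past roX2 in replicate 3 and inside roX2 in replicate 1. A weaker pooled peak (11579019 to 11579418, rank 17517) covered the start of roX2. The acetyltransferase gene mof had its nearest IDR summit at -2819 bp from its TSS.

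Among the other lists of X-linked genes, ribosomal protein genes were bound most often. In this list 11 of 14 members were bound (78.6%, 49.2 to 95.3), beside 24.6% of all X protein-coding genes. Their signals were low, with a median of 283.1 and 4 of 11 above the median of the list, and the highest were RpS10b (492.6 signal units), RpS5a (423.8 signal units) and RpS28b (380.2 signal units). For RpS5a the ranks were 5632 in replicate 1 and 1850 in replicate 3, so replicate 3 ranked it far higher. RpS14b has a near-identical neighbour, RpS14a, and its peak is uncertain for that reason. The high share for ribosomal protein genes was known from all chromosomes of these lists and is no independent evidence here.

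Of 20 genes of chromatin and transcription, 9 were bound (45.0%, 23.1 to 68.5). After ph-p came TH1, a subunit of the NELF pausing complex (signal 1061.2), and Bap60, a subunit of the Brahma remodelling complex (signal 608.1). The TH1 peak lay between TH1 and the checkpoint kinase gene mei-41 and was counted for both. Of 17 neuronal genes, 7 were bound (41.2%, 18.4 to 67.1). They were led by elav, the gene of an RNA-binding protein of neurons, with signal 2437.8 at rank 136 in replicate 1 and 231 in replicate 3. The elav summit, at -258 bp from its TSS, lay inside another gene, arg. Next were dnc, the cAMP phosphodiesterase gene (signal 1384.9), and Hk, a potassium channel beta subunit gene (signal 804.2). The intervals of both lists include the share of all X protein-coding genes, 24.6%.

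Of 13 genes for cytoskeleton, polarity and muscle, 5 were bound, the strongest being sqh, the myosin regulatory light chain gene (signal 933.5), par-6, a polarity scaffold gene (signal 796.3), and Act5C (signal 547.8). Of 8 pigment and metabolism genes, 3 were bound: cin, a gene of molybdenum cofactor synthesis (signal 638), car, a vacuolar sorting gene (signal 391.6), and Zw, for glucose-6-phosphate dehydrogenase (signal 259.4). Of 5 ecdysone and metamorphosis genes, 2 were bound. These were usp, for the partner of the ecdysone receptor (signal 483), and br, an early gene of metamorphosis (rank 6830). The intervals of these 3 lists include 24.6% as well.

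Signalling and patterning genes were bound at about the level of X as a whole. Of 17 signalling genes, 4 were bound, first sgg, which encodes the fly GSK3 kinase (signal 2145.3), then csw, a SHP2 phosphatase gene (signal 904), and upd3, a JAK/STAT ligand gene (signal 197.9). A further 6 had a summit inside their span and none at a TSS. Of 22 patterning transcription factor genes, 5 were bound, with ct (signal 657.6), oc (signal 379) and bi (signal 249.3) the strongest, and again 6 more had a summit in their span. Of 8 cell cycle and replication genes, 2 were bound, mei-41 and nod, through the peaks described above. None of 9 eggshell and yolk genes was bound, which allows a share of up to 33.6%. For each list in this paragraph the interval includes the 24.6% of all X protein-coding genes.

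**Figure D5:**
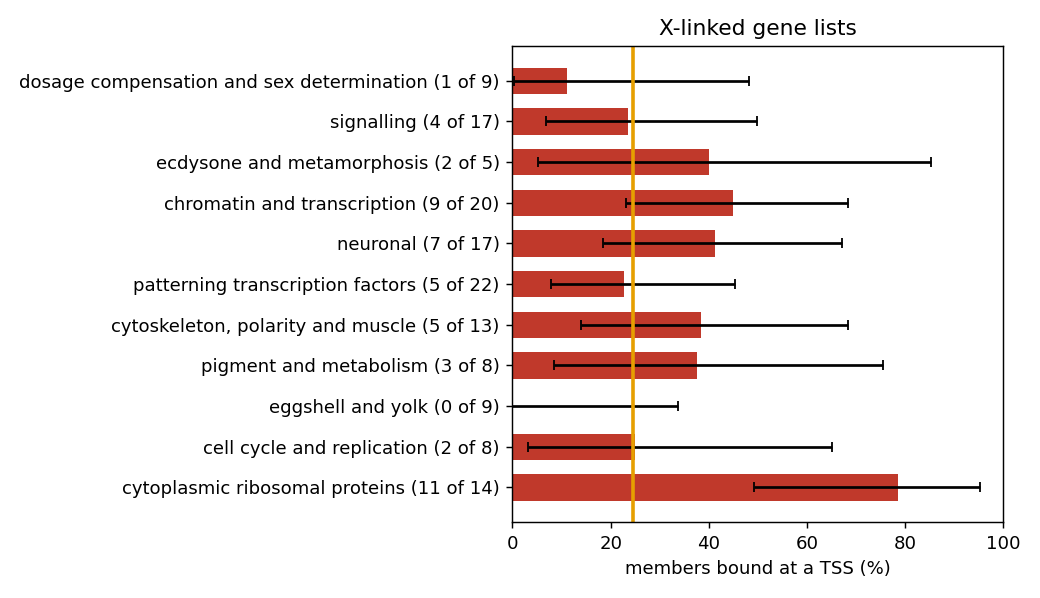
Share of members bound at a TSS (%) in 11 lists of X-linked genes, with counts beside the names and 95% exact intervals. The line marks the 24.6% of all X protein-coding genes; cytoplasmic ribosomal protein genes lay at 78.6%.

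Both replicates marked nearly all X sites. Of the 1648 IDR peaks on X, 1614 (97.9%, 97.1 to 98.6) overlapped a peak in each replicate by at least 1 bp, against 96.6% on 2L, 97.2% on 3L and 96.1% on 3R. Of the other 34, 20 had no peak in replicate 1 and 14 none in replicate 3. The IDR list itself came from these replicates, which favours such overlap. Ranks of 1557 matched X peaks had a Spearman correlation of 0.80 between replicates, and those of the other arms 0.84, 0.82 and 0.82, given as descriptions across peaks.

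X summits were rich in A and T, as were those of the other arms, and the small differences varied by class. Within 50 bases of the summit the median share of G and C was 31.7% on X and 29.7% on the other 3 arms together, against 44.6% and 46.5% in windows 300 bp to the left. By arm the summit value was 29.7% on 2L, 29.7% on 3L and 30.7% on 3R. A run of at least 12 A or T occurred at 38.1% of X summits (35.8 to 40.5) and 15.5% of their flanks. The other arms had 40.98% and 13.0%. At promoters the run occurred at 37.1% of X summits (33.1 to 41.2) and 43.0% of those elsewhere (40.8 to 45.3). In introns the shares were 37.3% on X and 38.2% elsewhere, and in intergenic sequence 46.2% and 42.9%. These differences between arms were not tested.

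Motifs were searched as exact letters on both strands in the same windows, and a match is a description and not a bound site. TATAAA, the TATA box, occurred at 21.8% of X summits and 8.86% of their flanks, against 25.1% to 25.8% of summits on the other arms. Among all windows of that length at protein-coding TSSs, 12.0% held it on X and 14.9% to 17.6% elsewhere. TATAAA is made of A and T alone, and X summit windows had less G and C than flanks (medians 31.7% and 44.6%). The part of base composition in its share was not tested. CACACACA, a CA repeat, occurred at 2.43% of X summits, 5.52% of X flanks and 2.59% of X TSS windows. On the other arms these were 1.11% to 1.53%, 3.95% to 4.06% and 1.24% to 1.72%, so the repeat was more frequent on X in each kind of window and less frequent at summits than beside them on every arm. These shares were not tested. GAGAG, the core of GAGA factor sites, occurred at 10.1% of X summits, 17.0% of flanks and 12.5% of TSS windows, and the longer GAGAGAGA, which contains it, at 0.728%, 2.06% and 1.01%. On the other arms GAGAGAGA occurred at 0.655% to 0.8425% of summits, 1.05% to 1.63% of flanks and 0.33% to 0.671% of TSS windows. X was thus higher in flanks and TSS windows and within the range of the other arms at summits. TATCGATA, the DNA replication-related element (DRE), occurred at 0.667% of X summits, 0.485% of X flanks and 5.83% of X TSS windows. On the other arms it occurred at 0.8425% to 1.11% of summits and 0.0655% to 0.632% of flanks. GGTCACACT, the core of promoter Motif 1, occurred at 0.121%, 0.243% and 3.57% on X, and at 0.261% to 0.786% of summits elsewhere. CAGGTAG, the site of Zelda, and the E-box CACGTG occurred at 0.425% and 0.546% of X summits, and at 0.489% and 3.08% of X TSS windows. Only 34.0% of X summits were in promoters, so summits and TSS windows are not like sets.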

How the data were processed

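The data were ChIP-seq peak lists on build dm6 for the 2 replicates, their pool and the IDR step. The authors deposited, per the labels and the files' layout, a signal and a −log10 q-value for each peak. No label or header names the aligner, the peak caller or the scale of the signal. The deposited −log10 q-value was 4.37 for every IDR peak and was not used for ranking. Each replicate and pooled list held 30000 peaks, and the IDR peaks were the 8483 pooled peaks of highest signal. Depth is unknown because no read counts were given, and intervals cover the counting of peaks or genes only.

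Each summit was placed on the genes of Ensembl release 115 (BDGP6.54; its assembly is that of dm6), which leaves out transposable elements. Shares have 95% Clopper-Pearson intervals, differences of shares Newcombe intervals, and tests are two-sided. Calls used a threshold of 0.05, after Benjamini-Hochberg adjustment over the 7 classes. Alternatives were each replicate's 8483 strongest peaks, each other arm alone, windows of 250 and 1000 bp, the 4241 strongest peaks, no centromere ends, and, added after seeing the data, 1 summit per region, protein-coding genes only and peaks per Mb of class.

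Genes named were those at or nearest the 15 strongest X peaks, up to 3 bound members of each of 11 lists, roX1, roX2, the 5 genes with most summits and the strongest peak of the fullest and emptiest steps of 1 Mb. Sequences are for the 5 strongest X peaks at a TSS and the 3 strongest away from one, less 2 whose summits lie in a UTR. The members and lists were chosen with earlier results of these data known. Of the 143 list members given, 1 was not matched. Python 3.11.15, numpy 2.4.6, pandas 2.3.3, scipy 1.17.1 and matplotlib 3.10.9 were used.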

Additional observations from a re-analysis of the deposited data

How the results depend on the processing

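The intron and intergenic differences between X and the other arms kept their direction and passed under every alternative run, with intron differences of 8.74 to 14.8 points and intergenic differences of -16.7 to -6.86 points, and ratios per Mb of 1.29 and 0.658. The X density ratio of 1.10 did not pass among the 4241 strongest peaks (1.04) or against 3L (1.03), nor did the 3′ UTR difference among the strongest peaks (0.606 points). The signal difference was 0.0965 points among the strongest peaks. It passed against 3L (-4.14), with 1 summit per region (-3.11) and without replicate 1, and ran from -4.17 to -1.68 with a replicate left out. The promoter difference passed with a 250 bp window (-4.71), against 2L (-3.94) and against 3R (-3.76), turned to 0.971 against 3L, and per Mb of promoter X was 1.11 times the others. The 5′ UTR difference was 0.833 and passed at 250 bp, -0.164 at 1000 bp and -0.0698 against 3L. The noncoding exon difference was -0.0787 at 250 bp, and that of coding exons -0.0563 to 0.230 with a replicate left out. The bound gene difference was -2.25 at 250 bp, where it passed, and 0.962 at 1000 bp, 0.511 against 2L and 0.398 without centromere ends. The cause of these changes was not tested.

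The share of X peaks found in both replicates was 94.5% with summits within 100 bp and 87.2% with overlap of at least 50% of the peak. In windows of 100 bases to each side, motif shares at X summits were 1.64% for DRE, 23.3% for GAGAG, 2.79% for the GA repeat, 5.58% for the CA repeat, 0.546% for Motif 1, 34.8% for the TATA box and 1.76% for the E-box; a longer window holds more matches by construction. The other 91 values kept their direction and their side of the threshold, or moved by less than their interval. No paired analysis was possible because there was 1 group. With 2 replicates and no read counts, the spread between animals was not estimated.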

Other observations

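The longest stretch of X without an IDR summit lay near the centromere, from 21631710 to 22479598, with 847888 bp and 28 protein-coding genes. The next longest, from 14243229 to 14476732, had 233503 bp and 13 genes. A stretch of 208123 bp from 5087504 held only 2 genes. Over the whole of X, these stretches included, the median distance between neighbouring summits was 4933 bp. It was 4901.5 bp on 2L, 4383 bp on 3L and 5136 bp on 3R. The 1648 X peaks formed 1573 regions that did not overlap.

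On X, intergenic summits had a run of at least 12 A or T more often (46.2%, 38.7 to 54.0, n = 173) than intron summits (37.3%, 34.1 to 40.7, n = 852). The same shares were 37.5% and 40.5% on 2L, 49.2% and 37.8% on 3L, and 38.4% and 37.0% on 3R. These differences were not tested.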
